A study of Drosophila melanogaster with 9 samples.

Results

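Odorant-binding protein (Obp) genes were followed across 3 groups of sorted Drosophila larval cells: cells with ectopic Abrupt (Ab ME), cells with ectopic Knot (Kn ME) and cells with the marker alone (Control). Members were the genes whose symbol in the annotation of the array begins with Obp and a digit, and where a gene had several probe sets the one of highest mean was kept. This gave 47 genes, measured on 9 arrays, of the 11982 named genes on the array. The gene table used for names lists 51 Obp genes. Of the 4 that are not members, Obp50b, Obp50c and Obp57d are named only on probe sets with several symbols and Obp83a was not analysed here. The second probe sets of Obp19a, Obp19c and Obp59a passed in no comparison. Obps are small secreted proteins that bind hydrophobic molecules in the fluid around sensory dendrites. In adult antennae and taste hairs they are made mainly by the support cells that surround the neurons and less by the neurons themselves. Many members of the family are also transcribed outside chemosensory organs, among them seminal fluid proteins, fat body products and glial proteins.

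All 3 groups carried the driver GAL4[21-7] together with the membrane marker UAS-mCD8:GFP, the marker by which cells were sorted. Ab ME animals had UAS-abL/+ in addition, Kn ME animals had UAS-knL:HA on the homologue of the driver, and Control animals had neither transgene. GAL4[21-7] is labelled as active in every class of larval dendritic arborization (da) neuron, a sensory cell that spreads dendrites under the epidermis, and the labels do not say whether other cells are also driven. Each group had 3 biological replicates, each from 80 body walls of larvae that were wandering at the end of the third instar and had been reared at 25 °C, with 1 single-colour Affymetrix array per replicate. Abrupt (ab) and Knot (kn) are transcription factors that shape the dendrites of different da neuron classes.

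The arrays had medians of 1.44 to 1.47 in Ab ME, 1.496 to 1.53 in Kn ME and 1.59 to 1.67 in Control, on the log2 scale of the deposited values. No probe set was named ab, and the brightest kn probe set averaged 0.61 in Ab ME, 0.60 in Kn ME and 2.76 in Control, so it did not show the transgene in the libraries labelled Kn ME. It is not known here whether this probe set matches the introduced sequence, and the labels are used as given. Markers of 8 cell types were examined, and all arrays carried signal of cells other than neurons. The mean log2 value of 11 hemocyte markers was 9.67 to 9.85 in Ab ME, 9.12 to 9.38 in Kn ME and 5.98 to 7.88 in Control, while that of 8 neuronal markers was 3.14 to 3.25 in Ab ME, 3.95 to 4.14 in Kn ME and 5.18 to 5.67 in Control. Of those 8, 6 fell and 1 rose in Ab ME and 4 fell and 1 rose in Kn ME, and the one that rose was ct, a transcription factor gene of da neurons (1.62 in Ab ME, limma adjusted p = 0.00128, and 1.10 in Kn ME, adjusted p = 0.0162). In such sorted pools, fewer cells of a type and less RNA per cell cannot be told apart.

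A member was called expressed where its mean over the 9 arrays reached 2.54, which is 1 log2 unit above the median of all values, 1.54. By this measure 4 of the 47 genes were expressed, Obp56d, Obp56a, Obp83g and Obp44a, and 43 were near background. The same line was reached by 5486 of the 11982 named genes and by 7004 of the 18769 probe sets. The lowest mean of an expressed gene was 3.38, for Obp44a, and the highest of a gene near background 2.27, for Obp18a. Single arrays of Obp44a lay on both sides of the line, from 1.58 to 6.45. A probe set's brightness depends on its probes, so the line is no detection call and the levels of different genes are not set against each other. Of the 43 genes near background, 39 were below the line on all 9 arrays, and their means over the arrays went from 0.52 to 2.27. Among single groups, the mean reached the line for 3 members in Ab ME (Obp56d, Obp83g and Obp44a), 3 in Kn ME (Obp56d, Obp56a and Obp83g) and 5 in Control (the 4 expressed genes and Obp99b). Under other lines, 2 genes were expressed at 2 log2 units above the median and 17 above the 95th percentile of the odorant receptor genes, 1.24.

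**Figure D1:**
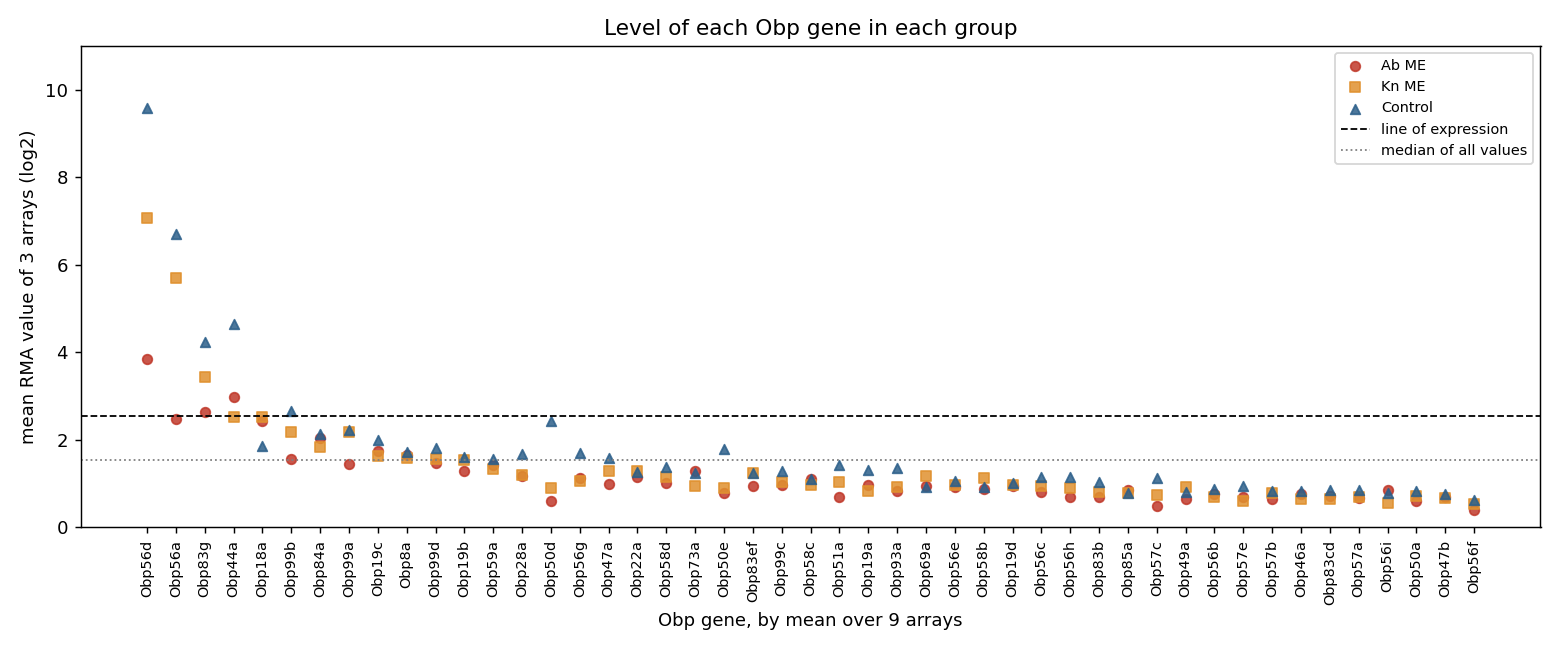
Mean log2 RMA value of 3 arrays for each of the 47 Obp genes, in Ab ME (circles), Kn ME (squares) and Control (triangles), with genes ordered by their mean over 9 arrays. The dashed line is the line of expression at 2.54 and the dotted line the median of all values at 1.54. Obp56d, Obp56a, Obp83g and Obp44a stand above the line by their mean over the arrays, and the other 43 genes below it.

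With ectopic Abrupt, Obp56d and Obp56a fell by more than any other member, and no Obp gene passed the test as higher, though 5 differences were positive. The 43 genes near background had little room to fall, so this ranking is in part given by level. With ectopic Knot, Obp56d also fell, and the difference of Obp56a did not pass the test. Over all 47 genes, 4 were lower and 0 higher in Ab ME than in Control (limma adjusted p under 0.05 over all probe sets). Of the 18769 probe sets, 5.25% were lower by this test and 8.72% higher, 14% in all. The 4 genes were Obp56d, Obp56a, Obp50e and Obp28a, and they make up 8.51% of the members. In Kn ME 2 genes were lower and 0 higher, Obp56d and Obp50e, or 4.26% of the members. Here 1.95% of all probe sets were lower and 3.34% higher, 5.29% in all. Of the 9331 probe sets with a mean below the median of all values, 183 were lower and 31 higher in Ab ME. In Kn ME 40 of them were lower and 1 higher. Between Kn ME and Ab ME 0 of 47 passed in limma, beside 0.517% of all probe sets, of which 0.266% were higher and 0.25% lower in Kn ME.

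At an unadjusted p under 0.05 in limma, 11 members were lower and 0 higher in Ab ME than in Control, or 23.4% and 0% of the members, beside 13.1% of all probe sets lower and 17.1% higher. In Kn ME 6 were lower and 0 higher, or 12.8% and 0% of the members, beside 8.5% and 11.3% of all probe sets. Between Kn ME and Ab ME 3 were higher and 0 lower in Kn ME, beside 3.79% and 4.97% of all probe sets. Of the 47 members 43 were near background, and dim probe sets seldom rose against Control. Among the 9331 probe sets with a mean below the median of all values, 11.9% were lower and 1.28% higher in Ab ME. In Kn ME these shares were 6.52% and 0.847%. Both differences from Control use the same 3 Control arrays, so they are not independent of each other.

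The count in Ab ME was 7 without Control replicate 1, when Obp99a, Obp99b, Obp50d and Obp93a passed and Obp28a did not, and 2 without Ab ME replicate 2. In Kn ME it was 0 without Control replicate 2 or 3, Ab ME replicate 1 or 2, or Kn ME replicate 1 or 2. It was 1 without Ab ME replicate 3 or Kn ME replicate 3. Among Control arrays, replicate 1 had the highest hemocyte marker mean (7.88, beside 6.55 and 5.98) and the lowest muscle marker mean (6.17, beside 7.53 and 7.40). Its neuronal marker mean (5.18, beside 5.31 and 5.67) was also the lowest of the Control arrays. So were its means of support cell (3.01, beside 3.28 and 3.16) and tracheal markers (5.77, beside 5.89 and 6.02). Its glial (4.53), epidermal (5.71) and fat body (3.74) marker means lay between those of the other Control arrays. The part of this in the counts was not tested. Of the members, 20 (42.6%) had all Ab ME arrays below all Control arrays and 0 above. Of all probe sets, 17.7% lay lower in this way and 17.2% lay higher. For Kn ME against Control the members gave 8 (17%) and 0, beside 10.8% and 11% of all probe sets. Of the 9331 probe sets with a mean below the median of all values, 1981 (21.2%) lay lower and 201 higher in Ab ME. In Kn ME 1095 (11.7%) of these dim probe sets lay lower and 213 higher. Between Kn ME and Ab ME, 10 of the 47 members had all Kn ME arrays above all Ab ME arrays and 2 (4.26%) below, beside 9.63% and 9.85% of all probe sets. Of the 9331 dim probe sets, 917 lay higher in Kn ME in this way and 272 (2.92%) lower.

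Obp56d, a gene of the classic Obp type that is known from adult olfactory and taste organs, had values of 3.25, 3.48 and 4.79 on the Ab ME arrays. The Kn ME arrays gave 6.66, 6.66 and 7.88, and the Control arrays 8.59, 10.12 and 10.03. The 3 groups did not overlap, and Kn ME lay between Ab ME and Control. The mean was 3.84 ± 0.84 in Ab ME, 7.07 ± 0.70 in Kn ME and 9.58 ± 0.86 in Control (SD, n = 3 each). Against Control, Obp56d fell by 5.74 log2 units in Ab ME (SE 0.56, limma adjusted p = 0.000616), a signal 53.5-fold lower. In Kn ME it fell by 2.51 (SE 0.56, adjusted p = 0.0409), or 5.71-fold. The fall in Ab ME passed in all 17 alternatives tried, with differences from -6.23 to -5.44.

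The fall of Obp56d in Kn ME passed in 9 of 17 alternatives. It was lost without Control replicate 2 (adjusted p = 0.0963) or 3 (0.0883), without Ab ME replicate 1 (0.0591) or 2 (0.0688) and without Kn ME replicate 1 (0.134) or 2 (0.141), and also with only the 6 arrays compared (0.0809) or with array weights (0.0937). The difference was -3.01 to -2.24 over all 17 alternatives. Between Kn ME and Ab ME, Obp56d was 3.23 log2 units higher in Kn ME (SE 0.56), a difference with an adjusted p of 0.0571 that did not pass. It passed in 8 of the 17 alternatives and not in 9. Those that passed included array weights (limma adjusted p = 0.0151), the trend and robust prior (0.0172) and the replicate block (0.0177). Others were those without Control replicate 1 (0.0353) and without Ab ME replicate 3 (0.0492).

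Obp56a, another classic Obp encoded near Obp56d, measured 1.64, 2.77 and 3.01 in Ab ME. In Kn ME its values were 5.30, 6.43 and 5.37, and in Control 5.42, 8.15 and 6.54. The Ab ME arrays lay below all others, and the Kn ME arrays overlapped those of Control. The mean was 2.47 ± 0.73 in Ab ME, 5.70 ± 0.63 in Kn ME and 6.70 ± 1.37 in Control (SD, n = 3 each). Obp56a fell by 4.23 log2 units in Ab ME (SE 0.67, limma adjusted p = 0.00513), and this passed in all 17 alternatives. Its Ab ME mean lay below the line of 2.54, so the size of the fall is uncertain and no fold is given. The Kn ME difference from Control was -1.003 (SE 0.67, adjusted p = 0.463), with a 95% interval from -2.55 to 0.54, and passed in none of the 17. Between Kn ME and Ab ME the difference was 3.23 (SE 0.67, adjusted p = 0.105). It passed in 5 of 17 alternatives and not in 12. Those that passed included array weights (limma adjusted p = 0.0183), the replicate block (0.0278) and that without Control replicate 2 (0.0403).

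Obp83g is encoded beside the double-domain genes Obp83cd and Obp83ef. Its values were 1.46, 3.60 and 2.80 in Ab ME, 3.40, 2.82 and 4.07 in Kn ME, and 4.04, 3.37 and 5.32 in Control. All groups overlapped, with the lowest value in Ab ME and the highest in Control. The differences from Control were -1.62 in Ab ME (SE 0.64, 95% interval -3.09 to -0.15, limma adjusted p = 0.133) and -0.81 in Kn ME (SE 0.64, interval -2.28 to 0.66, adjusted p = 0.535). Neither passed after adjustment over all probe sets.

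Obp44a is a Minus-C Obp, a type that lacks some of the conserved cysteines, and is known from glia of the larval nervous system. It measured 3.995, 2.73 and 2.21 in Ab ME, 1.91, 4.06 and 1.58 in Kn ME, and 5.53, 1.94 and 6.45 in Control. Single arrays of each group stood apart from the rest of their group, and in Control replicate 2 was far below the other two. The differences of -1.66 in Ab ME (SE 1.15, 95% interval -4.30 to 0.97, adjusted p = 0.362) and -2.12 in Kn ME (SE 1.15, interval -4.76 to 0.51, adjusted p = 0.359) did not pass in limma. The mean log2 value of 8 glial markers was 3.53, 3.56 and 3.72 in Ab ME, 4.15, 3.85 and 4.47 in Kn ME, and 4.53, 4.24 and 4.84 in Control. Of the 8, 3 fell and 1, loco, rose in Ab ME (1.63, limma adjusted p = 0.0209), and 2 fell and loco rose in Kn ME (1.68, adjusted p = 0.0352). Control replicate 2 was the lowest Control array for both Obp44a and the glial list, while in Kn ME replicate 2 was the highest for Obp44a and the lowest for the list. The part of glial RNA in the level of Obp44a was not tested.

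**Figure D2:**
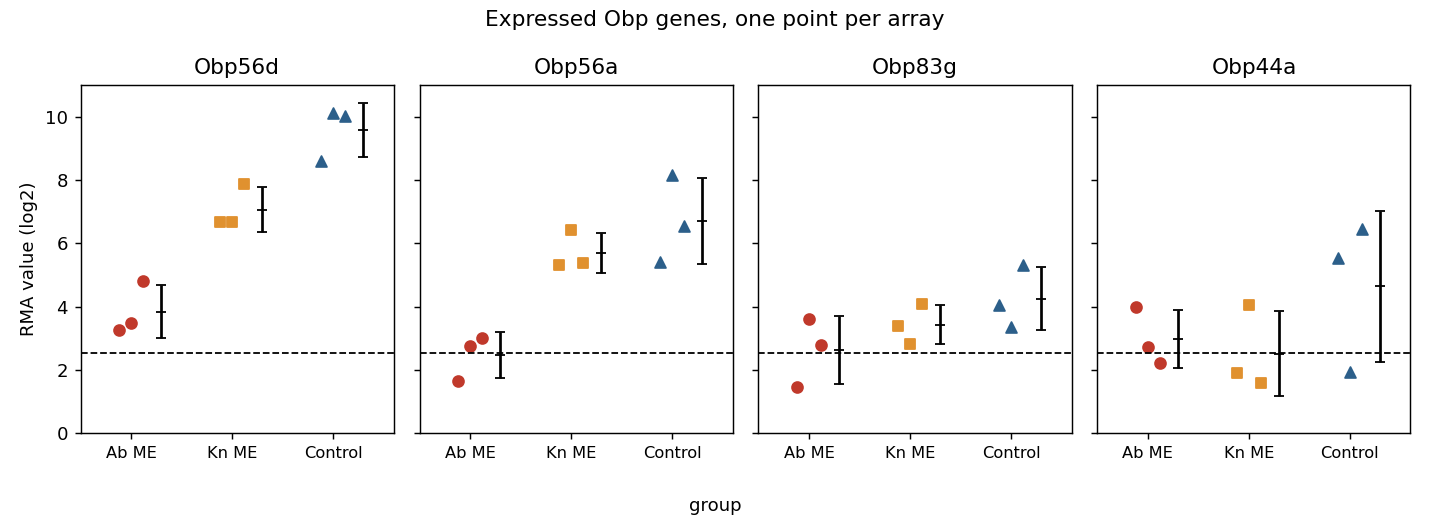
Log2 RMA values of Obp56d, Obp56a, Obp83g and Obp44a, 1 point per array, in Ab ME, Kn ME and Control, with the mean and SD of 3 arrays beside each group and the line of expression dashed. For Obp56d the 3 groups do not overlap, for Obp56a only the Ab ME arrays stand apart, and for Obp83g and Obp44a all groups overlap.

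Many Obp genes lie in tandem groups. When neighbours with at most 10 other genes between them are joined, 36 of the 51 Obp genes of the gene table used for names fall into 10 runs, of which 2 held an expressed gene. In the run from Obp56a to Obp56f, Obp56b and Obp56c follow Obp56a directly and come before Obp56d. Both were near background, with means over the 9 arrays of 0.77 for Obp56b and 0.96 for Obp56c. Obp56e and Obp56f, on the other side of Obp56d, had means of 0.98 and 0.52. The 7 Obp56 genes other than Obp56d and Obp56a stayed below the line on all 9 arrays, which is in part given, since the expressed genes were set aside. In limma 0 of the 7 passed in either comparison with Control, with 0 at an unadjusted p under 0.05 in Ab ME and 1 in Kn ME. Over all probe sets 5.25% were lower after adjustment in Ab ME and 1.95% in Kn ME. At means of 0.52 to 1.29 over the arrays, a fall of these 7 would be hard to see. The nearest measured genes outside the family on either side of this run, CG15128 (mean 0.73) and CG8517 (mean 1.11), were also near background. CG8517 was lower in Ab ME (-0.57, SE 0.14, limma adjusted p = 0.028).

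**Figure D3:**
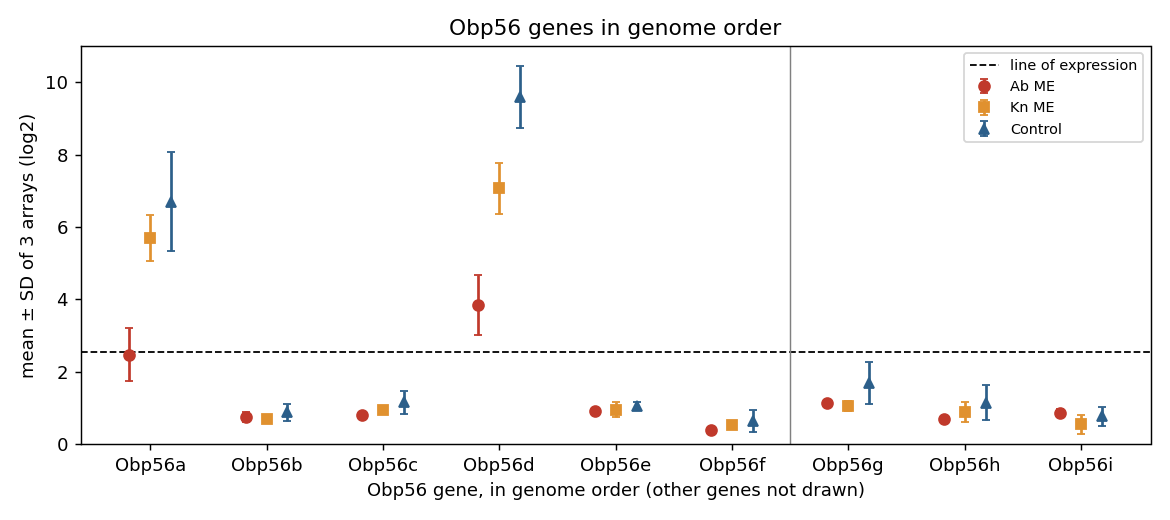
Mean ± SD of 3 arrays for the 9 Obp56 genes in genome order, in Ab ME, Kn ME and Control, on the log2 scale. The vertical line separates the run from Obp56a to Obp56f from the run from Obp56g to Obp56i. The mean of Obp56d lies above the dashed line of expression in every group and that of Obp56a in Kn ME and Control, and the genes between and around them stay below it in every group.

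In the run of Obp83cd, Obp83ef and Obp83g, 1 of the 3 genes, Obp83g, reached the line. Of the nearest measured genes outside the family, Gasp (mean 5.46) was above the line and Vha14-2 (mean 0.75) below it. Gasp was lower in Ab ME (-2.37, SE 0.58, limma adjusted p = 0.0307) and did not pass in Kn ME. The neighbours of Obp44a, Pabp2 (mean 6.79) and Lpin (mean 3.25), were above the line and passed in neither comparison with Control. The run from Obp19a to Obp19d had means of 0.97 to 1.79, that from Obp99a to Obp99b 1.09 to 2.14, and that from Obp59a to Obp58d 0.97 to 1.44. None of these last 3 runs held an expressed gene.

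Among the genes near background, Obp50e and Obp28a passed the test with small differences. Obp50e is a Plus-C Obp, a type with additional cysteines. It measured 1.00, 0.56 and 0.78 in Ab ME, 0.86, 0.81 and 1.02 in Kn ME, and 1.45, 2.14 and 1.79 in Control, so that every array of the misexpression groups lay below every Control array. It fell by 1.01 log2 units in Ab ME (SE 0.20, limma adjusted p = 0.0139) while in Kn ME the fall was 0.89 (-0.89, SE 0.20, adjusted p = 0.0422). The Ab ME call was lost without Ab ME replicate 2 (adjusted p = 0.0562). Of 16 alternatives, 4 kept the Kn ME call, and the adjusted p reached 0.14. Leaving out any single array other than Control replicate 1 ended the Kn ME call.

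Obp28a is an abundant Obp of adult antennae. Its values were 1.13, 1.17 and 1.19 in Ab ME, 1.36, 1.07 and 1.18 in Kn ME, and 1.77, 1.60 and 1.66 in Control. The Control arrays were all higher than the rest, by a small margin. The Ab ME difference of -0.52 (SE 0.13, limma adjusted p = 0.0343) passed in 4 of 16 alternatives, and was lost with another quantile normalization (-0.34, adjusted p = 0.175) and with median centring (-0.34, adjusted p = 0.123). Leaving out Control replicate 1 (0.0644) or 3 (0.0543), any of the Ab ME arrays (0.0923 to 0.11) or Kn ME replicate 3 (0.0532) ended it too. The Kn ME difference was -0.47 (SE 0.13, adjusted p = 0.079) and did not pass.

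Dim probe sets as a whole read lower in both misexpression groups in the deposited values. Over the 9331 probe sets with a mean below the median of all values, the median difference from Control was -0.16 in Ab ME, where 78.8% were negative, and -0.10 in Kn ME, where 70.4% were. Of the 43 Obp genes near background, 38 were negative in Ab ME, with a median of -0.24, and 38 in Kn ME, with a median of -0.22. Over all probe sets the median difference was -0.06 in Ab ME and -0.03 in Kn ME. Of the 47 Obp genes, 42 were negative in Ab ME and 42 in Kn ME in the deposited values, and 32 and 37 after another quantile normalization, where the median difference of the family was -0.14 in Ab ME and -0.13 in Kn ME and that of the dim probe sets -0.025 and -0.024. Centring each array on its median adds the same amount to every difference of a comparison, and left 29 and 33 of the 47 negative.

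Obp50d and Obp99b were the other genes near background whose Ab ME arrays lay apart from Control with a mean difference over 1 log2 unit. Obp50d, a Plus-C gene of the same run as Obp50e, measured 0.83, 0.49 and 0.50 in Ab ME, 0.95, 0.97 and 0.77 in Kn ME, and 0.90, 4.56 and 1.80 in Control. Control replicate 2 was far above the other arrays, and the Ab ME difference of -1.81 (SE 0.77, limma adjusted p = 0.156) did not pass. Without Control replicate 1 it did (-2.57, adjusted p = 0.0378). Obp99b, a Minus-C gene known from the fat body of the adult head, where it differs between the sexes, measured 1.72, 1.63 and 1.35 in Ab ME, 2.50, 1.89 and 2.13 in Kn ME, and 2.05, 2.35 and 3.60 in Control. Its Ab ME difference of -1.10 (SE 0.37, adjusted p = 0.0879) did not pass either, except without Control replicate 1 (-1.41, adjusted p = 0.0367). The mean log2 value of 4 fat body markers was 1.79 to 2.29 in Ab ME, 2.73 to 3.50 in Kn ME and 3.62 to 4.73 in Control, and its part in the level of Obp99b was not tested.

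**Figure D4:**
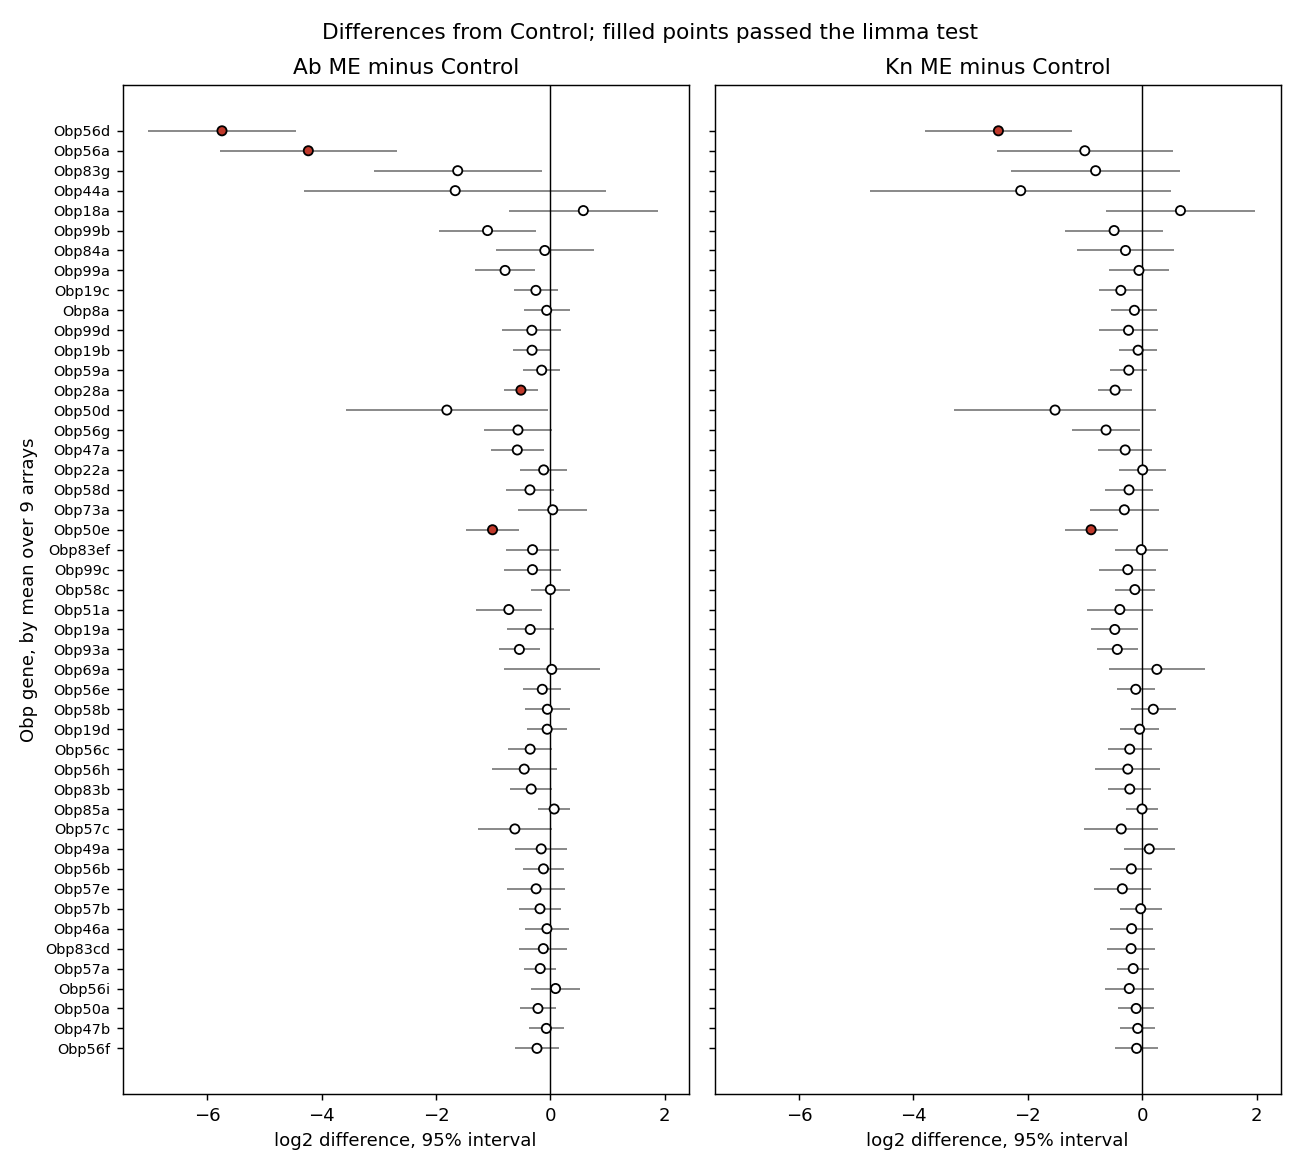
Log2 difference of each of the 47 Obp genes from Control in Ab ME (left) and Kn ME (right), with 95% intervals of the limma model and genes ordered by mean over 9 arrays. Filled points passed at an adjusted p under 0.05, which are Obp56d, Obp56a, Obp28a and Obp50e in Ab ME and Obp56d and Obp50e in Kn ME. No gene passed to the right of 0.

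Grouped by protein type, a grouping from textbook knowledge made after the values were seen, 1 of 6 Minus-C genes (Obp44a), 0 of 11 Plus-C genes and 3 of the remaining 30 genes were expressed. The 3 were Obp56d, Obp56a and Obp83g. Of the 11 Plus-C genes, Obp50e passed in Ab ME and in Kn ME, and of the 6 Minus-C genes none passed in limma. Of the remaining 30 genes, 3 were lower in Ab ME and 1 in Kn ME, beside 5.25% and 1.95% of all probe sets. At an unadjusted p under 0.05 in limma, 2 Minus-C, 3 Plus-C and 6 of the remaining genes were lower in Ab ME. In Kn ME these counts were 0, 2 and 4. Of all probe sets, 13.1% were lower at this threshold in Ab ME and 8.5% in Kn ME. Obp19d, Obp28a, Obp69a, Obp83b and Obp84a are best known from the adult antenna, and the means of these 5 over the 9 arrays were 0.85 to 2.01. The 7 members known as seminal fluid proteins, Obp8a, Obp22a, Obp51a, Obp56e, Obp56f, Obp56g and Obp56i, had means of 0.52 to 1.65 and were below the line on all arrays.

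Chemosensory receptor genes, whose products detect the ligands that Obps bind or carry, were near background with few exceptions. Of 57 odorant receptor genes 1 was above the line, of 56 gustatory receptor genes 0 and of 53 ionotropic receptor genes 1, beside 5486 of the 11982 named genes. In Ab ME 1 odorant receptor gene rose and 1 fell, 0 and 1 gustatory, and 1 and 2 ionotropic. Together these were 2 higher and 4 lower of 166, beside 8.72% higher and 5.25% lower of all probe sets. Or1a, a receptor gene of larval olfactory neurons, measured 3.02, 3.81 and 5.10 in Ab ME, 2.71, 2.42 and 2.00 in Kn ME, and 1.07, 2.38 and 1.80 in Control, and rose by 2.23 log2 units in Ab ME (SE 0.52, limma adjusted p = 0.0263). Ir7g measured 2.45, 2.04 and 2.00 in Ab ME, 0.97, 0.83 and 0.93 in Kn ME, and 0.74, 0.73 and 1.19 in Control, and rose by 1.28 (SE 0.18, adjusted p = 0.00342). For both genes every Ab ME array was above every other array. The falls were those of Or65b (-0.64), Gr22c (-0.59), Ir56c (-0.63) and Ir67b (-0.51), with limma adjusted p from 0.0256 to 0.0484. In Kn ME 0 of these 166 genes passed in limma. At an unadjusted p under 0.05, 15 were lower and 0 higher, beside 8.5% lower and 11.3% higher of all probe sets. Among probe sets with a mean below the median of all values, 6.52% were lower and 0.847% higher. Median differences of the Or, Gr and Ir genes stood at -0.14, -0.19 and -0.16 for Ab ME minus Control, and at -0.07, -0.13 and -0.06 for Kn ME minus Control, beside -0.25 and -0.23 for the Obp genes.

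A further list held 23 measured genes of the chemosensory periphery: the membrane protein genes Snmp1 and Snmp2, lush, which encodes the Obp of the pheromone cis-vaccenyl acetate, members of the chemosensory protein, CheA and CheB families, and enzymes thought to degrade odorants. Of these 2 fell and 0 rose in Ab ME, Phk-3 and CheA75a (-0.60, SE 0.14, limma adjusted p = 0.0232). The 2 genes are 8.7% of the list, beside 5.25% lower and 8.72% higher of all probe sets. In Kn ME 0 passed in limma, beside 1.95% lower and 3.34% higher of all probe sets. At an unadjusted p under 0.05, 2 were lower (8.7%) and 0 higher, beside 8.5% and 11.3% of all probe sets. Phk-3, a secreted chemosensory protein of another fold than the Obps, measured 2.55, 2.58 and 4.86 in Ab ME, 4.56, 4.38 and 4.96 in Kn ME, and 5.99, 7.70 and 7.78 in Control. All Control arrays were higher than the others. Phk-3 fell by 3.83 log2 units in Ab ME (SE 0.68, limma adjusted p = 0.00834), and its Kn ME difference of -2.52 (SE 0.68, adjusted p = 0.0754) did not pass. The mean of lush over the 9 arrays was 1.56, near background.

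The mean level of several marker lists was lower where Obp56d and Obp56a were lower. Epidermal and cuticle markers, 10 of 10 measured, had a mean log2 value of 3.39 to 3.88 in Ab ME, 4.48 to 4.76 in Kn ME and 5.23 to 5.77 in Control. In Ab ME 5 fell and 1 rose, the cuticle protein gene TwdlE (2.12, limma adjusted p = 0.0411), and in Kn ME 3 fell and 0 rose. Markers of sense organ support cells, 5 of 7 measured, had 1.08 to 1.35 in Ab ME, 1.75 to 2.24 in Kn ME and 3.01 to 3.28 in Control, with 3 falls and 0 rises in Ab ME and 0 of either in Kn ME in limma (3 lower at an unadjusted p under 0.05). The falls included nompA, which encodes a matrix protein that joins the dendrite to its cap and is made by support cells (-1.67, SE 0.45, limma adjusted p = 0.0416). Its mean was 1.19 in Ab ME, 1.61 in Kn ME and 2.86 in Control. Tracheal markers, 4 of 5 measured, gave 4.17 to 4.74 in Ab ME, 4.60 to 4.90 in Kn ME and 5.77 to 6.02 in Control. Of the 4, 3 fell and 1 rose in each misexpression group, and the riser was sty, which encodes an antagonist of receptor tyrosine kinase signalling (1.66 in Ab ME, limma adjusted p = 0.000237, and 0.82 in Kn ME, adjusted p = 0.012). Muscle markers, 5 of 8 measured, gave 4.19 to 4.53 in Ab ME, 6.29 to 6.62 in Kn ME and 6.17 to 7.53 in Control. Of the 5, 4 fell in Ab ME and 0 passed in Kn ME in limma. Every list but that of hemocytes had its lowest mean in Ab ME. The part of these cells in the Obp differences was not tested.

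**Figure D5:**
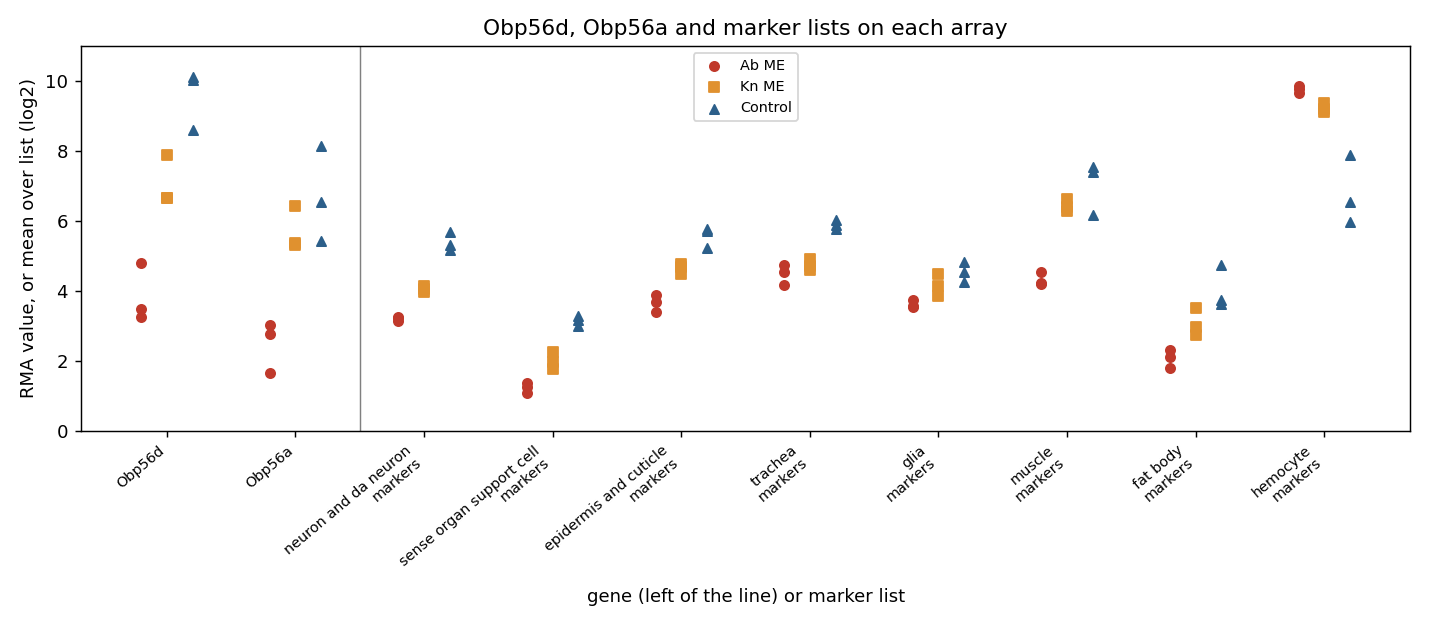
Log2 RMA values of Obp56d and Obp56a on each array (left of the vertical line) and the mean log2 value of each marker list on each array (right), in Ab ME, Kn ME and Control. Ab ME arrays are lowest for Obp56d, Obp56a and the neuronal, support cell, epidermal, glial, muscle and fat body lists, and highest for the hemocyte list, at 9.67 to 9.85.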

How the data were processed

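Values were the authors' deposited log2 values per probe set on 9 single-colour arrays, made with RMA, a method that corrects background, normalizes quantiles and summarises probes, per the submitters' processing notes. No version or log base is stated there, and base 2 follows from the values' range. Precision is limited by the number of arrays. The 183 control probe sets were left out and 18769 were tested. Probe sets with several symbols were not assigned to a gene. Symbols came from the platform annotation and a Release 6 gene table, which also gave gene order. Differences were fitted with limma 3.58.1 in R 4.3.3 (a term per group, 6 residual and 2.44 prior degrees of freedom, Benjamini-Hochberg adjustment over all probe sets, threshold 0.05) and tested on simulated data. Named were all Obp genes that passed, were expressed, or lay apart by over 1 log2 unit, and related list members that passed (at most 4 a list). Alternatives covered normalization, filter, prior, weights, arrays left out and a replicate block. The members and lists were chosen with earlier results of these data known.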

Additional observations from a re-analysis of the deposited data

How the results depend on the processing

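The Ab ME falls of Obp56d and Obp56a passed in all 17 alternatives, and in no alternative did an Obp gene pass as higher than Control. The count of 4 Obp genes called in Ab ME became 2 when dim probe sets were left out, and 2 to 7 when single arrays were left out. The count of 2 in Kn ME became 1 with another quantile normalization, 1 without dim probe sets, 0 with only the 6 arrays compared, 0 with array weights, 1 with the replicate block, and 0 to 2 with arrays left out. The count of 0 between Kn ME and Ab ME became 1 with another quantile normalization, 2 without dim probe sets, 1 with the trend and robust prior, 2 with only the 6 arrays compared, 2 with array weights, 2 with the replicate block, and 0 to 1 with arrays left out. These calls were Obp56d and Obp56a, higher in Kn ME. The Kn ME minus Ab ME difference of Obp28a, 0.041, turned to -0.034 with quantile normalization, -0.021 with centring and -0.039 to 0.11 with arrays left out. Leaving out dim probe sets removes Obp28a and Obp50e by construction; other causes were not tested. The number of expressed genes, 4, became 2 with a line at 3.54 and 17 with a line at 1.24, and stayed 4 with any array left out. Same-numbered arrays correlated in their deviations at 0.03 to 0.27, with 5 of 9 pairs over 0.1. Of the 9 arrays, 7 were closest to their own number. The main model did not pair arrays by number, and whether same-numbered arrays were handled together is not known here. With the replicate block the SE went from 0.562 to 0.324 for Obp56d, from 0.675 to 0.407 for Obp56a and from 0.202 to 0.226 for Obp50e. Among all probe sets, 62.4% of the Ab ME calls were higher as deposited, 49.6% after quantile normalization and 76.2% after centring, which moved the median difference from -0.06 to 0.11. In Kn ME these shares were 63.1%, 48.1% and 72.4%. Signal over background is unknown, so differences of genes near 1.54 are uncertain in size.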

Other observations

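Of 4 probe sets annotated to more than 1 gene including an Obp gene, 1 of the pair shared by Obp57d and Cpr57A, a cuticle protein gene, differed between the groups, and it cannot be assigned to either gene. It measured 2.81, 3.26 and 3.60 in Ab ME, 4.35, 4.75 and 5.20 in Kn ME, and 5.96, 6.92 and 7.12 in Control, with no overlap between groups. The differences from Control were -3.44 in Ab ME (SE 0.35, limma adjusted p = 0.000754) and -1.90 in Kn ME (SE 0.35, adjusted p = 0.0214). The other probe set of that pair measured 1.47, 1.40 and 1.36 in Ab ME, 1.00, 1.43 and 1.72 in Kn ME, and 1.65, 4.70 and 2.99 in Control, and did not pass (-1.70 in Ab ME, adjusted p = 0.113). Control replicate 2 was its highest array, as it was for Obp50d at 4.56. Both probe sets shared by Obp50b and Obp50c were near background, with means over the 9 arrays of 0.73 and 0.97.

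Obp18a did not follow the order of the groups seen for Obp56d. Its values were 1.95, 2.28 and 3.07 in Ab ME, 2.83, 1.69 and 3.06 in Kn ME, and 3.06, 1.38 and 1.13 in Control. In each group at least 1 array was above the line of 2.54 and at least 1 below it, and the differences of 0.58 in Ab ME (limma adjusted p = 0.525) and 0.67 in Kn ME (adjusted p = 0.567) did not pass. It was chosen for mention after its values were seen.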
